A study of Ceratina calcarata with 12 samples.

Results

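Weakly methylated windows are the stretches of the Ceratina calcarata genome where methylated CpGs were listed but where fewer than 20% of the reads over them were methylated. They were found by dividing each scaffold into windows of 200 bp, keeping the CpGs covered by 1 to 170 reads in all 6 bisulfite libraries, and summing methylated and total reads over the CpGs and libraries. A window with 2 to 9 kept CpGs and a pooled level under 20% is a member. There were 22021 such windows, which is 48.6% of the 45303 windows tested and 56.1% of the 39224 windows with 2 to 9 kept CpGs. Of these, 4880 lay under 5% and 17141 lay at 5 to 20%. A further 9339 windows lay at 20 to 50% and 7864 at 50% or more. The pooled level chose the windows, so the levels of the classes are a description and were not tested against each other.

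The bees were adult female offspring of this small carpenter bee, newly eclosed and matched in age and size, reared in the laboratory from eggs in field-collected nests. In the no care group the mother was taken out of the nest once the eggs had been provisioned with pollen. In the care group she stayed with the nest until the offspring were adult. Each group had 3 bisulfite libraries, each made from the pooled heads of 9 bees from different nests, so that the spread between libraries is one between pools and a head mixes the DNA of many cell types. Brain and other head tissues therefore cannot be told apart, and neither can a weakly methylated site in all cells from a fully methylated site in a few of them. All windows are given on the scaffolds of the assembly that the authors aligned to (C. calcarata v1.1).

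Bisulfite turns unmethylated cytosines into bases that are read as thymine, whereas methylated cytosines are still read as cytosine, and the share of cytosine reads at a CpG is its methylation level. In bees and many other hymenopteran insects DNA methylation is sparse and is found mostly over the exons of genes that are active in many tissues. This is unlike in mammals, where most CpGs of the genome carry it. A window of intermediate or low level in a pool can hold sites methylated in a minority of cells, of bees or of alleles. Sites that bisulfite fails to convert add a low level of false methylation everywhere, which spiked-in unmethylated lambda phage DNA measures.

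The levels formed one broad peak at the low end and a long flat shoulder above it. The number of windows per percentage point was highest around 5% and the 5% limit cuts through the peak, so windows under 5% and windows of 5 to 20% are neighbouring ranges of one distribution. Only CpGs listed for methylation above the lambda background in some library enter it. Unmethylated CpGs are thus missing, and the fall of the peak towards the lowest levels depends on the listing. Just inside the 5% limit, the window scaffold305.2:37401-37600 had a pooled level of 4.993% and scaffold162:99801-100000 had 4.992%, and just outside it scaffold1336:4001-4200 and scaffold151.2:1226401-1226600 had exactly 5%. Just inside the 20% limit, scaffold78.2:3097401-3097600 had 19.98% and scaffold119:116201-116400 had 19.98%, and just outside it scaffold15.2:22801-23000 and scaffold188.2:42801-43000 had exactly 20%.

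**Figure D1:**
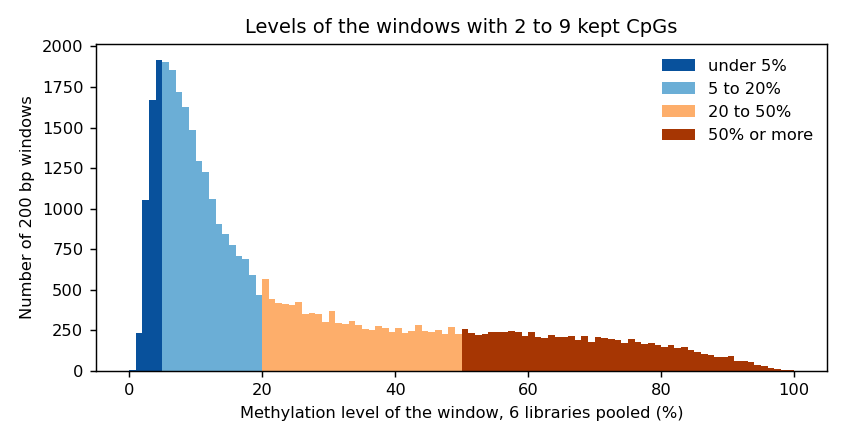
Number of 200 bp windows with 2 to 9 kept CpGs (vertical axis) by methylation level pooled over the 6 libraries (horizontal axis, %, in steps of 1 point), coloured by class. The 4880 windows under 5% and the 17141 windows of 5 to 20% form the rising and the falling side of one peak, and the 7864 windows of 50% or more lie in the flat part. Only listed CpGs enter, so the rising side depends on the listing.

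The most methylated CpG of a member had a lower level in windows under 5% than in those of 5 to 20%. The class limits largely set this, since a pooled level under 5% over few CpGs leaves little room for a CpG of 20% or more. The most methylated CpG of a window under 5% had a median level of 4.8%, and 0 of these windows held a CpG of 20% or more. In windows of 5 to 20% the most methylated CpG had a median of 15%, and 31.0% of the windows held a CpG of 20% or more. A CpG of 50% or more was present in 145 of these windows (0.846%). Weak windows also held fewer listed CpGs. Windows under 5% had a mean of 3.18 kept CpGs and 48.8% of them had only 2, whereas windows of 5 to 20% had a mean of 4.05 and 30.6% of them had only 2. The windows of 20 to 50% and of 50% or more had means of 4.93 and 4.61. Only listed CpGs enter these numbers, and a CpG was listed only where its methylated reads exceeded the lambda background in some library by a binomial test.

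At the level of single CpGs, methylated reads in weak windows were often missing from some of the libraries. In windows under 5%, 13.4% of the 15506 CpGs had a methylated read in all 6 libraries, and 8.47% (1314 CpGs) had methylated reads in 1 library only. In windows of 5 to 20%, 30.5% of the 69447 CpGs had methylated reads in all 6 libraries and 3.37% in 1 only. In windows of 50% or more these shares were 91.7% and 0.0718%. Of the 1314 single-library CpGs under 5%, 219, 176 and 211 were methylated in no care replicates 1, 2 and 3 and 206, 374 and 128 in care replicates 1, 2 and 3. Care replicate 2 had the most, and it was also the deepest library, with 55.8 reads per CpG in these windows against 29.4 to 39.8 in the other 5. At a low level, a library can miss methylated reads at a CpG by counting error alone. These shares therefore do not show that the libraries differed in which CpGs were methylated. The part of level and depth in these shares and counts was not tested.

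**Figure D2:**
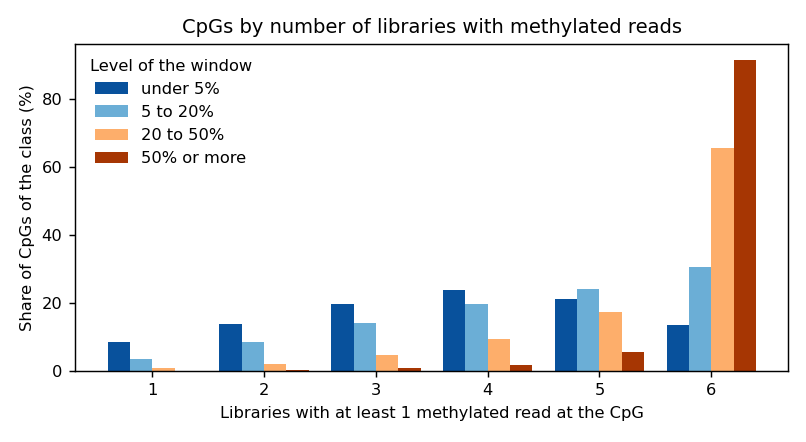
Share of the CpGs of each class (vertical axis, %) by the number of libraries, out of 6, that held at least 1 methylated read at the CpG (horizontal axis). The most frequent number is 4 libraries in windows under 5% and 6 libraries in the other classes, with 13.4% and 30.5% of CpGs at 6 libraries under 5% and at 5 to 20%.

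Over whole windows, which sum 2 to 9 CpGs and so reach at least as many libraries as any of them, methylated reads came from all 6 libraries in 51.4% of windows under 5% and in 71.5% of windows of 5 to 20%, and from 1 library alone in 123 (2.52%) and 28 (0.163%). The level in a library not used for choosing the windows stayed low. When each library was left out and the windows chosen again from the other 5, the windows under 5% had between 3.93% and 4.49% in the library left out, and those of 5 to 20% had between 9.84% and 10.7%. In the 6 choices from 5 libraries, between 89.6% and 92.4% of the windows under 5% were again in that class, and between 93.7% and 96.2% of the windows of 5 to 20%. Both choices share 5 libraries, so much of this agreement is built in.

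Coverage differed between the classes, and it is part of the level and of the filter that chose them. Windows under 5% had 39.8, 35.4 and 34.8 reads per CpG in no care replicates 1, 2 and 3 and 31.0, 55.8 and 29.4 in care replicates 1, 2 and 3. Windows of 5 to 20% had 23.4, 21.6 and 19.0 reads per CpG in the no care libraries and 15.5, 27.4 and 15.1 in the care libraries. Coverage was higher under 5% in 6 of 6 libraries, by 17.3 ± 5.50 reads (SD, n = 6). Among windows with fewer than 10 reads per CpG and library, 1.05% lay under 5%, and the share was 3.78% at 10 to 20 reads, 12.9% at 20 to 30, 38.0% at 30 to 40 and 66.4% at 40 or more. In each class the weakest CpG had at least 2 methylated reads in some library, as the authors' test against the nonconversion rate requires, so a CpG with few reads could be listed only at a higher level. The listing step and the level thus fix this direction, and the coverage of the classes is given as a description, with no test.

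The share of windows under 5% varied along the genome. On the 110 scaffolds with at least 100 windows of 2 to 9 CpGs, the share of windows under 5% had a median of 10.4% and ran from 0% on scaffold143 (117 windows) to 35.4% on scaffold435.2 (51 of 144 windows). Scaffold59.2 with 34.0%, scaffold50.2 with 32.7% and scaffold86.2 with 31.3% came next. The median coverage on these 4 scaffolds was 33.8, 28.4, 30.3 and 26.8 reads, against 10.1 on scaffold143. The 4 scaffolds with the highest shares were all more deeply covered than scaffold143, the direction that the listing step gives.

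The 2 weak classes differed in where they lay relative to methylated sequence. A window of 20% or more adjoined 2.54% of the windows under 5% (124 of 4880) and 27.3% of the windows of 5 to 20%. A window under 5% adjoined 41.2% of the windows under 5% and 10.6% of those of 5 to 20%. No listed CpG was found in either adjoining window for 14.98% of the windows under 5% and for 5.17% of those of 5 to 20%, and for 0.903% of the windows of 50% or more. At a like coverage of 30 to 40 reads per CpG, a window of 20% or more adjoined 2.23% of windows under 5% and 20.4% of windows of 5 to 20%, and 94.7% and 99.5% of the windows of 20 to 50% and of 50% or more.

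With distance the shares of the 2 classes came closer. Of the tested neighbours of windows under 5%, 2.69% had 20% or more at 200 bp, 15.8% at 600 bp, 34.9% at 1000 bp and 45.2% at 1600 bp. Their share under 5% was 51.8% at 200 bp, 18.2% at 1000 bp and 13.9% at 1600 bp. Around windows of 5 to 20% the share of neighbours at 20% or more was 22.5% at 200 bp, 51.9% at 1000 bp and 49.9% at 1600 bp. Their share under 5% was 8.69% at 200 bp and 10.1% at 1600 bp. At 6000 bp the share at 20% or more was 40.5% around windows under 5% and 45.1% around those of 5 to 20%. These are shares of the neighbours that held a tested window, which was so for 47.3% of the places at 200 bp and 38.8% of those at 1000 bp around windows under 5%. Of the windows under 5%, 67.4% had a tested window on at least 1 side. The share at 200 bp was lower than that at 1600 bp on 68 of the 68 scaffolds that had at least 10 tested neighbours of windows under 5% at both distances, with medians over scaffolds of 2.08% and 45.0%. For windows of 5 to 20%, the share at 200 bp was lower than that at 1000 bp on 110 of 110 scaffolds, with medians of 23.1% and 53.3%. Neighbouring windows share reads, and the level that chose the windows sorts both partners, so these shares are given with no test.

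**Figure D3:**
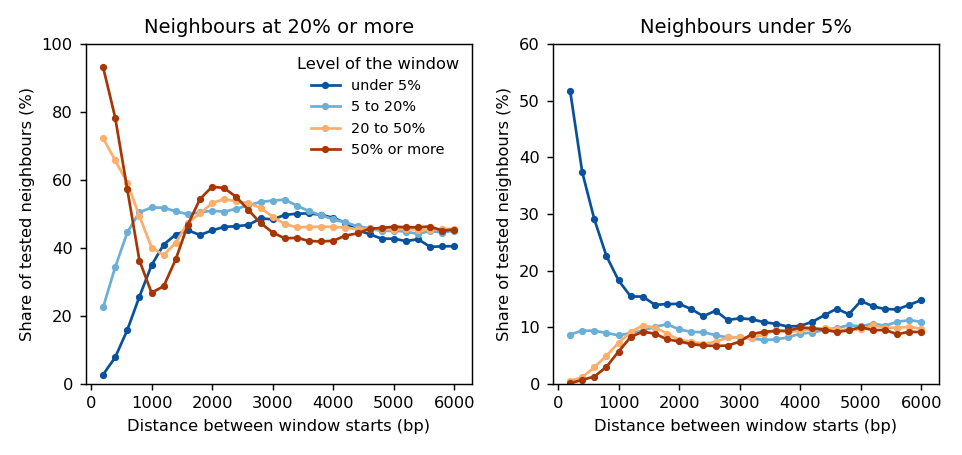
Share of tested neighbour windows (vertical axes, %) at 20% or more (left) and under 5% (right) by distance between window starts (horizontal axis, bp, both directions together), for windows of each class. Around windows under 5% the left share is 2.69% at 200 bp and 45.2% at 1600 bp, and the right share is 51.8% at 200 bp and 13.9% at 1600 bp.

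In both weak classes each no care library had a lower level than each care library. Windows under 5% had 3.52%, 3.43% and 3.47% methylated reads in no care replicates 1, 2 and 3, against 3.65%, 3.94% and 3.57% in care replicates 1, 2 and 3. The groups did not overlap. The means were 3.47 ± 0.044% in no care and 3.72 ± 0.194% in care (SD, n = 3 each), a difference of -0.25 percentage points (exact two-sided permutation test over libraries, p = 0.1, the smallest that 3 against 3 allows). Without care replicate 2 the difference was -0.14 points. In windows of 5 to 20% the levels were 10.1%, 9.93% and 10.1% in no care and 10.5%, 10.6% and 10.2% in care, with means of 10.1 ± 0.114% and 10.4 ± 0.204% (SD, n = 3 each) and a difference of -0.36 points (exact permutation test, p = 0.1). With both classes summed, the levels were 8.29%, 8.19% and 8.21% in no care and 8.36%, 8.52% and 8.19% in care, which overlapped (difference -0.12 points, exact permutation test, n = 3 each, p = 0.4). This value depended on the weight of each window, since the mean over windows, each with the same weight, was 8.90% in no care and 9.37% in care, which did not overlap (difference -0.46 points, exact permutation test, n = 3 each, p = 0.1). Weighted in the same way, the windows under 5% alone differed by -0.40 points (3.397% in no care and 3.795% in care).

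The nonconversion rate measured on lambda DNA moved with the groups in the same way. Over the 47 listed lambda positions it was 0.512%, 0.510% and 0.482% in the no care libraries. In the care libraries it was 0.559%, 0.521% and 0.628%, and the groups did not overlap. These positions may have been listed for their methylated reads, as the CpGs were. The rate of lambda DNA as a whole may then be lower, which was not tested. With each library's rate at the 47 positions taken off, windows under 5% averaged 2.97 ± 0.045% in no care and 3.15 ± 0.244% in care. The difference was -0.18 points, and the groups overlapped (exact permutation test, n = 3 each, p = 0.3). Windows of 5 to 20% then averaged 9.56 ± 0.125% in no care and 9.85 ± 0.259% in care and overlapped as well (difference -0.29 points, p = 0.3, the same exact test). For the windows of 20 to 50% and of 50% or more, the groups did not overlap with the rate taken off either, with 32.5% in no care and 33.6% in care, and with 65.7% in no care and 67.3% in care (exact permutation test, n = 3 each, p = 0.1 for each). The ratio of no care to care was 0.933 under 5%, 0.966 at 5 to 20%, 0.965 at 20 to 50% and 0.976 at 50% or more, before the rate was taken off. Whether these ratios differ was not tested.

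**Figure D4:**
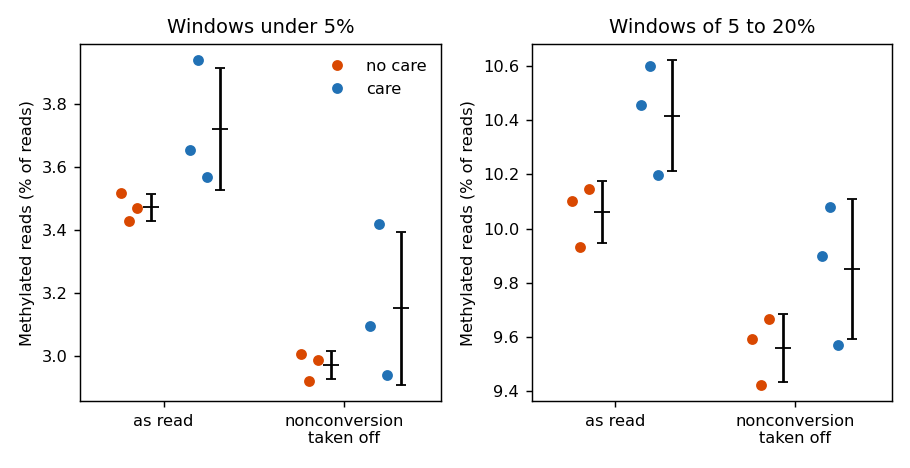
Methylated reads as a percent of reads (vertical axes, which do not start at 0) in the windows under 5% (left) and of 5 to 20% (right), for the 3 no care and 3 care libraries, as read and with the nonconversion rate at the 47 listed lambda positions taken off. Points are libraries, and black bars give the mean and SD of each group. The groups are apart as read, and they overlap with the nonconversion rate taken off.

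Window by window, few weak windows passed the test between groups. The test was a binomial (logistic) regression of methylated over total reads with Benjamini-Hochberg adjustment over all 45303 windows, and calls were made at an adjusted p under 0.01 together with a pooled difference over 5 percentage points. Of the 22021 weak windows 37 were called (0.168%), against 0.32% of all windows tested. Of these, 13 were higher in no care (background 0.053%) and 24 were lower (background 0.267%). The windows under 5% gave 6 calls, 2 higher and 4 lower in no care (0.123%), and the windows of 5 to 20% gave 31, 11 higher and 20 lower (0.181%). The share called was alike in the other windows of 2 to 9 CpGs, with 16 calls at 20 to 50% (0.171%) and 19 at 50% or more (0.242%). Windows of 10 or more CpGs, which are not members, gave 73 of the 145 calls over all windows (1.20% of 6079). Under 5% the balance of directions depended on the settings, with 9 higher and 6 lower in no care without a minimum difference, 4 and 1 with library levels centred, and 3 and 2 with windows shifted by 100 bp.

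The share of windows without overlap lay near the background in both classes, and other measures lay on either side of it. The 3 no care and 3 care levels did not overlap in 10.7% of windows under 5% and in 10.6% of windows of 5 to 20%, against 11.7% of all windows. An unadjusted p under 0.05 was reached by 20.1% and 12.1% of them, against 14.1% of all. An adjusted p under 0.01 at any difference was reached by 47 weak windows, which is 0.213% of them against 0.38% of all windows, and 15 of the 47 lay under 5%. In the 6 called windows under 5% the lower group had a pooled level of 0.312% to 2.19%, and the other 9 of the 15 differed by 5 points or less. A pooled level under 5% with a difference over 5 points already holds the lower group low. The median difference was -0.40 points under 5% and -0.58 points at 5 to 20%, against -0.81 points over all windows tested.

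The spread between the pools was wider than counting error alone gives. The chi-square of the 6 libraries per degree of freedom, which is 1 where reads alone make the spread, had a mean of 1.82 under 5%, 1.42 at 5 to 20%, 1.35 at 20 to 50% and 1.27 at 50% or more. This chi-square passed p = 0.01 in 12.7% of the windows under 5% and in 5.79% of those of 5 to 20%. The windows under 5% also held more reads, with medians of 558 under 5% and 317 at 5 to 20%, and a CpG could be listed through a single library where its methylation was high. The part of each in these values was not tested. The main test takes no account of this spread. With 1 overdispersion for all windows (1.41) it called 0 weak windows. The smallest binomial adjusted p of a weak window was then 0.00149, so at least 1 passed that limit and missed the 5 point difference. An unadjusted p under 0.05 was reached by 628 of the 4880 windows under 5% and by 1123 of the 17141 at 5 to 20%. With an overdispersion estimated in each window the test also called 0, with 150 and 264 windows under an unadjusted p of 0.05. The share over all windows was not computed at these settings, so no difference is read from these counts.

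Of the called windows under 5%, the one with the smallest adjusted p was higher in no care. Scaffold569.2:632201-632400, with 6 kept CpGs between bases 632325 and 632399, had 8.40%, 8.07% and 6.10% in no care replicates 1, 2 and 3, against 1.38%, 3.13% and 1.05% in care replicates 1, 2 and 3. Every no care library was above every care library, which was a condition for naming a called window. The pooled difference was 5.32 points (binomial regression over all windows, adjusted p = 0.000914). All 6 CpGs had a higher share in no care, from 4.46% (5 of 112 reads) in no care against 0.901% (1 of 111) in care at base 632325 to 10.5% (13 of 124) against 2.86% (4 of 140) at base 632352. These CpGs lie close together and can share reads, and the window was chosen by its difference, so they are not independent of it. Its adjusted p stayed under 0.01 with any 1 library left out, but the difference was 4.85 points without no care replicate 1 and 4.98 points without care replicate 3.

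The second one that was higher in no care was nearly unmethylated in care. Scaffold321.2:246001-246200, with 3 kept CpGs, had 5.15%, 4.67% and 7.61% in the no care libraries, against 0%, 0% and 1.11% in the care libraries. The care libraries held 1 methylated read among 321 and the no care libraries 17 among 296. The zeros rest on 78 and 153 reads, which allows levels of up to 3.85% and 1.96% (3 counts). The difference was 5.43 points (binomial adjusted p = 0.00529), and the adjusted p stayed under 0.01 only without care replicate 3, and was 0.107 without care replicate 2.

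The 4 called windows under 5% that were lower in no care had their highest levels in 1 or 2 of the care libraries. Scaffold90:188401-188600 had 2.15%, 1.40% and 0.813% in no care, against 10.3%, 10% and 3.39% in care (difference -7.35 points, binomial adjusted p = 0.00386). Scaffold71:68001-68200 had 0.617%, 1.105% and 2% in no care, against 2.55%, 9.40% and 4.90% in care (difference -5.19 points, binomial adjusted p = 0.00315). Without care replicate 2, whose level was the highest, the difference in scaffold71:68001-68200 was -2.19 points with a binomial adjusted p of 0.400, and the adjusted p in scaffold90:188401-188600 was 0.0816 at a difference of -6.14 points. Scaffold8:814001-814200 had 0%, 1.27% and 2.34% in no care, against 2.50%, 9.80% and 4.202% in care (difference -5.14 points, binomial adjusted p = 0.00951), and its difference was -2.16 points without care replicate 2 (binomial adjusted p = 0.434). Its zero rests on 137 reads, which allows up to 2.19%. Scaffold305.2:157401-157600 had 1.83%, 1.71% and 0% in no care, against 6.86%, 4.61% and 18.2% in care (difference -6.80 points, binomial adjusted p = 0.00837), and its difference was -4.19 points without care replicate 3 (binomial adjusted p = 0.130). Its zero rests on 77 reads, which allows up to 3.90%.

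**Figure D5:**
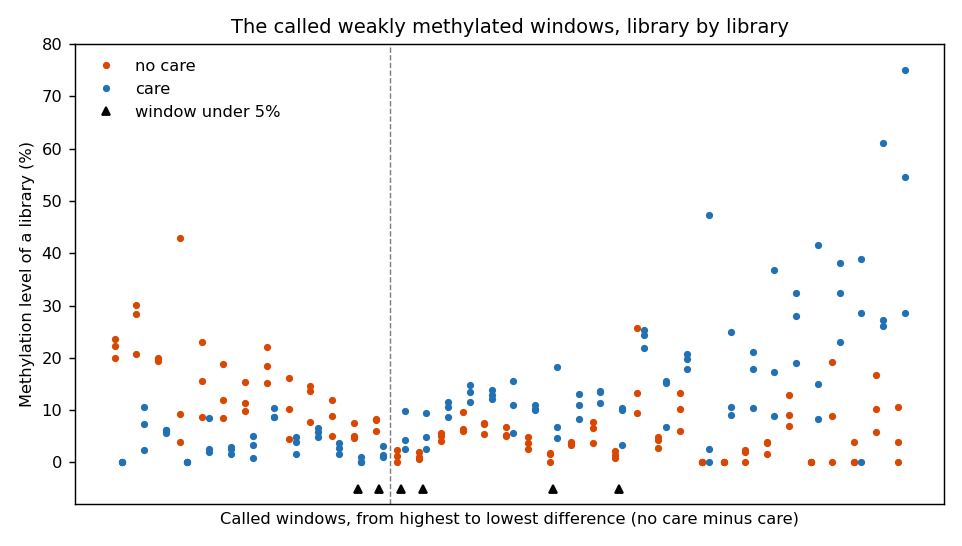
Methylation level in each library (vertical axis, %) for the 37 called weak windows, ordered by the difference of no care minus care (horizontal axis, highest on the left), with the 3 no care libraries left of the 3 care libraries of each window. Left of the dashed line are the 13 windows higher in no care, and triangles mark the 6 windows under 5%. The groups do not overlap in 32 of the 37.

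Among the windows of 5 to 20%, the tightest difference lay on scaffold8 as well. Scaffold8:831801-832000, with 4 kept CpGs, had 20%, 19.8% and 19.4% in no care replicates 1, 2 and 3, against 6.25%, 5.56% and 6.25% in care replicates 1, 2 and 3. The difference was 13.8 points (binomial adjusted p = 0.000272). At its first CpG, base 831806, 31 of 83 reads were methylated in no care and 11 of 81 in care, and at its last, base 831987, 4 of 80 in no care and 0 of 97 in care. The window before it had a pooled level of 41.7%. The adjusted p was 0.0127 without care replicate 2, at a difference of 13.5 points, and under 0.01 without any of the other 5.

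The other 3 windows of 5 to 20% named as higher in no care were less even. Scaffold185.2:41401-41600, with 8 kept CpGs, had a difference of 19.6 points (binomial adjusted p = 0.000156, and 0.0130 without care replicate 2 at a difference of 20.2 points). Scaffold337.2:445401-445600, with 9 kept CpGs beside a window of 51.6%, had 22.1%, 15.1% and 18.3% in no care, against 8.61%, 10.4% and 8.72% in care. Its difference was 9.08 points (binomial adjusted p = 0.00404, and 0.116 without no care replicate 1). Scaffold219.2:94601-94800 had 11.9%, 8.43% and 18.8% in no care, against 1.54%, 2.94% and 2.56% in care (difference 10.1 points, binomial adjusted p = 0.00413, and 0.0563 without care replicate 2 at a difference of 10.7 points). In these 3 windows every no care library was above every care library, as the choice of the named windows required.

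Of the windows of 5 to 20% that were lower in no care, scaffold514.2:311401-311600 had the smallest adjusted p among those without overlap. Its 8 kept CpGs gave 5.94%, 13.3% and 10.2% in no care, against 19.8%, 20.8% and 17.8% in care (difference -9.69 points, binomial adjusted p = 0.000424, and 0.0351 without no care replicate 1). The no care libraries of scaffold86.2:215401-215600 were close together, with 3.56%, 3.39% and 3.88%, against 13.1%, 8.33% and 11.1% in care. Its difference was -6.91 points (binomial adjusted p = 0.00165, and 0.0129 without care replicate 1), and all 5 of its CpGs had a lower share in no care, such as 3 of 128 reads in no care against 15 of 124 in care at base 215435. Its CpGs also lie close together and can share reads. Scaffold291.2:472801-473000 had 4.27%, 4.88% and 2.72% in no care, against 6.84%, 15.2% and 15.6% in care (difference -8.90 points, binomial adjusted p = 0.00138, and 0.0983 without care replicate 2). Scaffold110.2:305201-305400 had 6.51%, 7.66% and 3.73% in no care, against 11.5%, 13.6% and 13.5% in care (difference -7.14 points, binomial adjusted p = 0.00284, and 0.0577 without no care replicate 3).

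Each of the 3 windows under 5% with the largest spread between libraries had 1 pool far above the other 5. Scaffold1567:4001-4200 had 11.6% in care replicate 1 (26 of 225 reads, 95% Wilson interval 8.01 to 16.4%) and 0.816% in the other 5 libraries together (12 of 1470). Care replicate 1 had methylated reads at all 6 of its CpGs. Scaffold173.2:401-600 had 11.2% in care replicate 1 (35 of 312 reads) and 2.49% in the other 5 (45 of 1807). Its binomial adjusted p was 0.000341, and at a difference of -4.28 points it was not called. Scaffold39.2:435401-435600 had 20.2% in care replicate 3 (20 of 99 reads, interval 13.5 to 29.2%) and 1.44% in the other 5 (11 of 763). In these windows the other libraries of the care group were close to or below the highest no care library.

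At 5 to 20%, 2 of the 3 windows with the largest spread were of this kind. Scaffold27:483801-484000 had 70.0% in care replicate 1, from 7 of only 10 reads, and 1.99% in the other 5 libraries (3 of 151). Scaffold127.2:111601-111800 had 47.4% in care replicate 1 (9 of 19 reads) and 0.595% in the other 5 (1 of 168), and it was called as lower in no care (difference -12.5 points, binomial adjusted p = 0.00813) although 1 of the 3 care libraries had 0%, as all 3 no care libraries did. The other one, scaffold48.2:2075201-2075400, was of another kind and was covered by 123 reads per CpG and library. It had 13.3%, 9.46% and 25.7% in no care replicates 1, 2 and 3, against 24.3%, 21.9% and 25.3% in care, and was called (difference -8.67 points, binomial adjusted p = 0.000424) with overlapping groups.

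The weakest windows with the most CpGs had overlapping groups. Scaffold178.2:1184401-1184600 had 9 kept CpGs, the most that a member can hold, a pooled level of 2.57% and no CpG above 3.33%. Its levels were 1.20%, 2.28% and 1.25% in no care and 3.62%, 3.67% and 2.09% in care, on 3624 reads. Scaffold579.2:496201-496400, also with 9 kept CpGs, had 1.92%, 3.82% and 1.42% in no care and 6.87%, 1.64% and 3.32% in care. At 5 to 20%, scaffold153.2:13801-14000 and scaffold151.2:1661001-1661200 had 9 kept CpGs and pooled levels of 5% and 5.02%. Both had overlapping groups.

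Weak windows were placed on gene models where positions were at hand, which was so for 2 whole scaffolds, scaffold39.2 and scaffold78.2, with 737 gene models. There, 94.98% of windows under 5% (246 of 259) and 95.3% of windows of 5 to 20% (1020 of 1070) overlapped a gene model, against 95.1% of windows of 20 to 50% and 97.9% of windows of 50% or more. Gene models covered 88.1% and 86.7% of the 2 scaffolds, so the share is high for any window. A weak window was present in 313 of the 737 gene models (42.5%) and a window under 5% in 164. Of the 313, 250 also held a window of 20% or more. Weak windows in genes thus mostly stood in the same gene as stronger ones, and 63 gene models held weak windows and no tested window of 20% or more. Windows of 20% or more were counted here with any number of CpGs from 2 up. Exons, introns and UTRs were not told apart here.

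Expression in heads was read from 6 RNA libraries of pooled heads, 3 for each group, and is given here for sets of genes made by their windows. Counts scaled to the total of the library (CPM) were divided by the span of the gene model in kilobases, introns included. In making the sets, windows of 20% or more counted with any number of CpGs from 2 up, and weaker windows only with 2 to 9. The 27 genes with windows under 5% only had a median of 1.58 CPM per kb, and between 1.13 and 2.03 in the 6 libraries. The 36 genes with weak windows only, at least 1 of them of 5 to 20%, had 6.60 (5.61 to 7.78). The 53 genes whose highest window lay at 20 to 50% had 15.9 (15.2 to 16.7), the 222 genes with a window of 50% or more had 11.97 (11.5 to 12.8), and the other 399 genes, which held no window of 2 to 9 kept CpGs, had 0.139 (0.109 to 0.155). The 2 sets with weak windows only lay between the other genes and the genes with stronger windows in each of the 6 libraries. Within a set the genes varied widely, with quartiles of 0.0123 and 12.5 CPM per kb in the first. These values are a description of 2 scaffolds.

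The gene models with most windows under 5%, which were picked after their values were seen, are given here with no test and with no account of their length. Names are those of the closest fly genes given by the study. Ccalc.v2_000033 (l(2)k05819), Ccalc.v2_000212 (Svil, an actin-binding protein of the supervillin family), Ccalc.v2_000327 (Nhe3, a sodium/proton exchanger) and the unnamed Ccalc.v2_000359 held 7 windows under 5% each. CG1677 (Ccalc.v2_000283), CG7728 (Ccalc.v2_000361) and Ythdf (Ccalc.v2_000316) held 6 each. Svil held 5 more windows of 5 to 20%, 4 of 20 to 50% and 2 of 50% or more. Nup153, a protein of the nuclear pore, Cand1, a regulator of ubiquitin ligases, Adar, an RNA-editing enzyme, and mor, a subunit of a chromatin remodelling complex, held 5 each, together with 1 to 3 windows of 50% or more. Ccalc.v2_000708 (CG7131) also held 6 windows under 5%, with 1 of 5 to 20% and 0 of 20% or more.

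Gene models overlapped 2 of the windows described above. The window scaffold39.2:435401-435600, methylated mostly in care replicate 3, lay in Ccalc.v2_000033, which held 15 weak windows and 8 of 20% or more. The window just under the 20% limit on scaffold78.2 lay in Ccalc.v2_000669 (twin, a subunit of the fly complex that shortens mRNA tails). A called window of 5 to 20%, scaffold39.2:3072001-3072200, lay where the models Ccalc.v2_000283 (CG1677) and Ccalc.v2_000285 overlap, so that it cannot be given to one of them. Its pooled difference was -5.77 points (binomial adjusted p = 0.00742).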

How the data were processed

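The authors trimmed the bisulfite reads with Trimmomatic 0.32, aligned them with Bismark 0.14.5, removed duplicates, merged strands and listed the CpGs whose methylation exceeded lambda nonconversion in any library (binomial test). Each deposited file gives coverage as a count of reads and the methylated share as a percent of it. The same 278132 CpGs were listed in each library. Methylated reads were recovered as percent times coverage (100% whole, within 0.001 reads), and 273427 CpGs with coverage of 1 to 170 in all 6 libraries were kept. The RNA values deposited by the authors are raw counts per gene model (TopHat alignments), 26752341 to 31894020 per library, and were used only as CPM. Gene positions and names come from a list of the study, of which 3 scaffolds were at hand, 2 of them whole.

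Windows were tested by logistic regression (likelihood ratio, no overdispersion, Benjamini-Hochberg), in Python in place of the MethylKit package that the study used, at the thresholds of the study, and single values by exact permutation. The regression was tested on simulated data. Python 3.11.15, numpy 2.4.6, pandas 2.3.3, scipy 1.17.1 and matplotlib 3.10.9 were used. Named windows are, for each class and direction, up to 4 called ones without overlap of the groups, taken by adjusted p, the 2 nearest windows on each side of a limit, the 3 with the largest spread between libraries and the 2 with most CpGs and the lowest level, the limits and the last with at least 300 reads. Other windows and genes named were chosen after their values were seen. The windows, classes and tests were chosen with earlier results of these data known. Alternatives were coverage limits, shifted windows, at least 4 CpGs, members under 15%, other thresholds, overdispersion, replicate block, centred library levels, the mean of window levels, median coverage, nonconversion taken off and each library left out. An alternative with only CpGs methylated in 2 or more libraries was added after seeing the data. Wilson intervals (95%) cover counting error only. Sequences were not used here.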

Additional observations from a re-analysis of the deposited data

How the results depend on the processing

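No called count held under every alternative. Under 5% (6 calls) the count was 34 at an adjusted p under 0.05, 15 with no minimum difference (9 higher and 6 lower in no care), 0 with a difference over 10 points, 0 with overdispersion in each window and 0 with 1 overdispersion for all windows. At 5 to 20% (31 calls) these counts were 95 at the wider threshold, 16 over 10 points and 0 with either overdispersion. A pooled level under 5% leaves almost no room for a difference over 10 points, so the class limit nearly fixes that 0. With 1 library left out, the counts ran from 2 to 11 under 5% and from 10 to 28 at 5 to 20%, whether the windows were chosen from all 6 libraries or again from 5. With the windows as chosen from 6, the counts were 3 and 17 without no care replicate 2, 11 and 15 without care replicate 1, and 4 and 10 without care replicate 2. Of the 37 called windows, 8, 15 and 15 were called again without no care replicates 1, 2 and 3, and 14, 9 and 21 without care replicates 1, 2 and 3, with no change of direction. The share of calls higher in no care depended on these settings. It was 35.1% in the main test, 50% with library levels centred (15 of 30), 70.0% without no care replicate 2 (14 of 20) and 14.3% without care replicate 2 (2 of 14). The level differences kept their direction in all alternatives. With the mean of window levels they were -0.40 points under 5% and -0.48 points at 5 to 20%, and they ran from -0.32 to -0.14 points under 5% and from -0.48 to -0.27 points at 5 to 20% with 1 library left out. The coverage difference between the classes ran from 14.2 to 18.1 reads with 1 library left out. The cause of these changes was not tested.

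No pairing of the libraries by replicate number was seen, but the check cannot exclude it. Deviations from the group means correlated by -0.010 to 0.008 between libraries of the same number over the weak windows. Over all windows tested these correlations were 0.00079 to 0.0087, and those between different numbers were -0.0146 to 0.0071. Counting error makes such correlations weaker. With the replicate block 8 windows under 5% and 28 of 5 to 20% were called, and 26 of the 37 calls were kept. The level differences of -0.25 and -0.36 points had p = 0.25 with the block (exact sign-flip permutation test), the smallest that 3 pairs allow.

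Depth also limits the single windows. A weak window held a median of 558 reads under 5% and 317 at 5 to 20% over 6 libraries. The median numbers of methylated reads were 19 and 31, so the methylated reads of 1 pool can weigh heavily in the difference of a window.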

Other observations

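The share of weak windows among the tested neighbours of strongly methylated windows was highest about 1 kb away. Of the tested neighbours of windows of 50% or more, 93.2% had 20% or more at 200 bp, 26.8% at 1000 bp (where 34.8% of the places held a tested window), 58.0% at 2000 bp and 41.9% at 3800 bp. The median level of these neighbours was 55.7% at 200 bp, 12.6% at 1000 bp and 26.6% at 2000 bp. The share at 1000 bp was lower than that at 2200 bp on 98 of the 101 scaffolds with at least 10 tested neighbours at both distances. Around windows under 5% the share of neighbours at 20% or more had its highest value at 3600 bp (50.1%), and was 40.5% at 6000 bp.

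The gene model Ccalc.v2_000316 (Ythdf, which in other animals binds methylated adenosines in mRNA) held 24 weak windows, 13 of 20 to 50% and 8 of 50% or more. Its RNA level was between 0.130 and 0.376 CPM in the 6 RNA libraries, which rests on few reads. Windows were given to gene models by overlap, and gene models can overlap, so some of these windows may belong to another model.

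A further 2487 windows under 20% had 10 or more kept CpGs and are not among the weakly methylated windows described here. Windows of 10 or more CpGs at any level gave 73 calls among 6079 (1.20%), of which 5 were higher in no care.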
